A study of Mus musculus with 8 samples.

Results

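The 29 genes described here were listed as genes of enteric neurons and were taken by symbol from a deposited expression table of 55681 genes. They comprise transcription factors of the neuron lineage, RNA-binding and cytoskeletal proteins shared by most neurons, proteins of transmitter release, and the enzymes, transporters, receptor and peptides that mark transmitter classes. All 29 were in the table, and 25 had a mean of at least 1 FPKM (fragments scaled to the length of the gene and the depth of the library) and were tested among the 14220 genes that passed this filter. RNA was extracted from entire small intestines of E15.5 mouse embryos, on a C57BL6J background, with 1 embryo intestine per library. The 4 embryos labelled Slmap-cKO carried Slmap fl/fl with Cre under the Dermo driver (Dermo1, now Twist2, is a gene of mesenchymal cells), and the 4 controls carried Slmap fl/fl. Thus both groups carried the floxed alleles, and the intestine was taken whole, so that neurons, glia, muscle, mesenchyme and epithelium share each library. No litter, batch or sex is given in the labels.

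The enteric nervous system forms from neural crest cells that migrate into the gut and settle as ganglia between and beneath the muscle layers of its wall. There they become glia and neurons, and the neurons release acetylcholine, nitric oxide and peptides onto muscle, epithelium and each other. A mesenchymal driver is directed at the tissue around these cells. In whole tissue, fewer neurons and less RNA per neuron cannot be told apart.

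Reads recovered from the FPKM values summed to 15663837 to 17806397 per library. Controls 3 and 4 had 25832 and 25934 genes with at least 1 read, against 23883 to 24071 in the other 6 libraries, and cKO 2 had the lowest array quality weight, at 0.329. Slmap itself averaged 25.5 ± 1.40 FPKM in the libraries labelled cKO and 24.1 ± 0.915 FPKM in controls (SD, n = 4 each), and the log2 difference was 0.07 ± 0.07 (SE, adjusted p of 0.570 by limma), so that its level over the whole gene did not separate the labels. An exact 2-sided permutation test gave p = 0.143, where the smallest possible value is 0.0286. The group names below follow the labels.

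The most abundant members were the neuronal tubulin Tubb3 at a mean of 26.7 FPKM over the 8 libraries, the peripheral neuron filament peripherin (Prph) at 24.8 FPKM, the deubiquitinase Uchl1 (PGP9.5) at 23.2 FPKM and the growth cone protein Gap43 at 19.8 FPKM. Below them came Stmn3, Sncg and Tlx2 at 13.8, 11.9 and 11.5 FPKM, and the least abundant tested member was Snap25 at 1.48 FPKM. The 4 members under the filter were Chat, Dbh, Th and Npy. Tubb3 and Prph lay above Gap43 in each of the 8 libraries, while the order of Tubb3, Prph and Uchl1 changed between libraries. Phox2a, Tlx2, Elavl4, Prph and Uchl1, which are used as markers of enteric neurons, lay above the filter in every library of both groups. Levels in whole tissue do not show which cells held these transcripts.

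**Figure D1:**
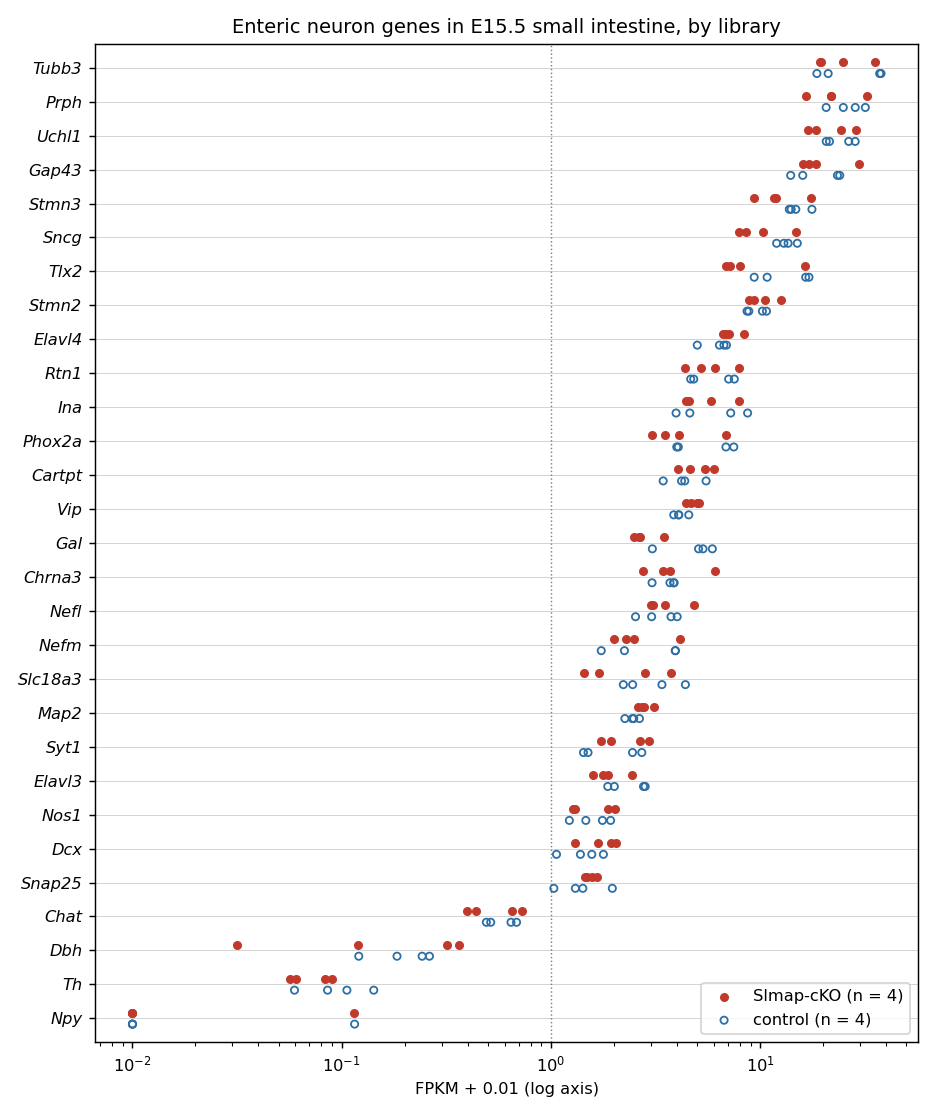
Level of each of the 29 enteric neuron genes in each library, in FPKM plus 0.01 on a log axis, ordered by mean level; filled points are the 4 libraries labelled Slmap-cKO, drawn above the open points of the 4 controls. The dotted line marks 1 FPKM, and the points of both groups interleave or overlap in all 29 rows.

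None of the 25 tested members passed the threshold of an adjusted p of 0.05, higher or lower in cKO. Across all 14220 tested genes limma called 0 higher (0%) and 2 lower (0.0141%). With p unadjusted and under 0.05, Vip was the 1 member higher and Gal the 1 lower, where 12.6% of all tested genes were higher and 9.87% lower by that measure. In the alternative fit of limma-voom on the recovered reads, 0 members and 0 of all genes were called, and 11.5% of all genes lay at an unadjusted p under 0.05 on the higher side and 11.4% on the lower. No member had all 4 cKO libraries on one side of all 4 controls, whereas 9.61% of all tested genes were higher and 5.75% lower without overlap. Log2 fold changes were below 0 for 13 members and above 0 for 12 (50.3% of all tested genes were below 0), with a median of -0.03 against -0.00 over all tested genes.

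The members varied together between libraries of the same group. Summed over the 29 genes, cKO libraries 1 to 4 held 191.8, 265.6, 165.7 and 154.4 FPKM, and controls 1 to 4 held 246.8, 244.1, 169.5 and 190.3 FPKM. The highest library was thus a cKO and so were the lowest 2, and the groups overlapped throughout. The mean deviation of the 25 tested members from their gene means, in log2(FPKM + 1), was -0.02, 0.31, -0.21 and -0.23 in cKO 1 to 4 and 0.21, 0.19, -0.18 and -0.07 in controls 1 to 4. Among the 8 libraries cKO 2 was the highest for 12 of the 25 members (15.3% of all tested genes), and among the cKO libraries it was the highest for 22 (36.7%). Controls 1 and 2 both lay above controls 3 and 4 for 18 members (42.3% of all tested genes), and cKO 1, 3 and 4 all lay below controls 1 and 2 for 15 (30.7%).

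Several other lists had a like order of libraries, and others had not. A list of 46 other neuron genes had deviations of -0.00, 0.15, -0.15 and -0.16 in cKO 1 to 4 and 0.14, 0.16, -0.08 and -0.06 in controls 1 to 4. Enteric glia markers (8 genes) ran from -0.21 to 0.16 in cKO and from -0.03 to 0.12 in controls, again with cKO 2 the highest. Smooth muscle markers (10 genes) ran from -0.25 to 0.13 in cKO and from -0.03 to 0.28 in controls, and fibroblast markers (8 genes) from -0.32 to 0.13 in cKO and from -0.14 to 0.32 in controls. Their summed levels were 1172 to 1585 FPKM in cKO and 1311 to 1854 FPKM in controls for smooth muscle, and 46.5 to 54.1 FPKM in cKO and 48.6 to 51.4 FPKM in controls for 12 glia markers. None of the 10 smooth muscle and 8 fibroblast markers was at 0. Epithelium and enteroendocrine markers went the other way for cKO 2, with deviations of -0.26 and -0.39, the lowest of the cKO libraries. Among macrophage markers cKO 1 was the highest cKO library, at 0.07 against -0.11 in cKO 2. Mesothelium markers were highest in controls 3 and 4, at 0.58 and 0.42, against 0.11 in controls 1 and 2, and markers of interstitial cells of Cajal were also higher in controls 3 and 4 (0.07 and 0.05) than in controls 1 and 2 (0.02 and 0.01). The part of tissue makeup in the levels of the members was not tested.

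Without cKO 2 and controls 3 and 4, the libraries named above as apart, limma called 11 of the 25 members, all lower in cKO, where 14.5% of all tested genes were then called lower and 15.3% higher. They were Elavl3, Gal, Gap43, Ina, Nefm, Phox2a, Prph, Slc18a3, Sncg, Tlx2 and Tubb3, and the median of the 25 members was then -0.43. In that limma fit Tlx2 was at -1.09 and Gal at -0.79 in log2 (adjusted p = 0.00629 for both), and Vip was at 0.21 (adjusted p = 0.105). The libraries left out are those in which the member levels lay nearest to the other group, and that choice fixes the direction, so the count describes the remaining 5 libraries and no more. Without cKO 2 alone, 1 member was called, Sncg, at an adjusted p of 0.0281 by limma (n = 3 cKO against 4 controls), with 4.15% of all tested genes called lower and 5.57% higher. With array quality weights, which count cKO 2 and controls 3 and 4 less, Gal, Sncg and Tlx2 were called lower, where 7.24% of all tested genes were called lower and 8.3% higher. Both of these fits leave out or count less some of the same libraries, so the same limit holds and their calls are not separate evidence.

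**Figure D2:**
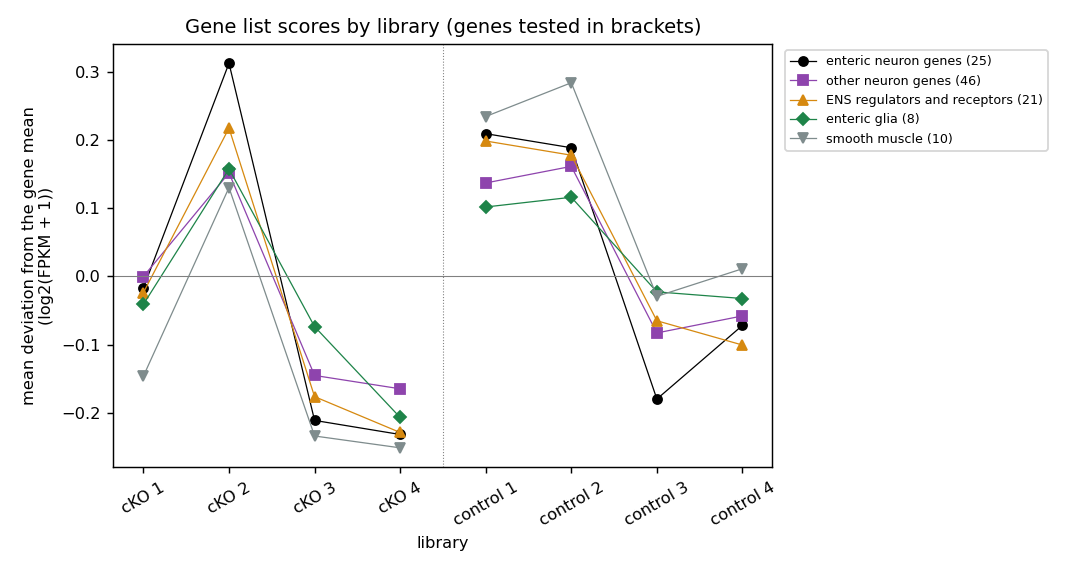
Mean deviation from the gene mean on the log2(FPKM + 1) scale (vertical axis) in each library (horizontal axis, libraries labelled cKO on the left of the dotted line, controls on the right) for the 25 tested enteric neuron genes and 4 other lists. Each line is a list: all 5 are higher in cKO 2 than in the other cKO libraries and higher in controls 1 and 2 than in controls 3 and 4. Erbb3 and Sox10 are in both the enteric glia list and the list of regulators and receptors, and L1cam is listed in both the other neuron genes and the regulators.

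The transcription factors Phox2a and Tlx2 had the highest GC contents of the members and were both below 0. Tlx2 (Hox11L1; chr6:83045305-83047274, minus strand, GRCm39), a homeobox gene whose loss in mice alters the number of enteric neurons, had 8.04, 16.3, 7.16 and 6.88 FPKM in cKO 1 to 4, against 17.1, 16.5, 9.35 and 10.8 FPKM in controls 1 to 4. Of the cKO libraries 3 lay below every control and cKO 2 lay just under controls 1 and 2, and the log2 fold change was -0.48 ± 0.28 (SE, adjusted p of 0.343 by limma). Phox2a (chr7:101467520-101471933, plus strand), a homeobox gene of autonomic neuron differentiation, had 4.07, 6.83, 3.496 and 3.04 FPKM in cKO 1 to 4, against 6.85, 7.47, 4.05 and 3.98 FPKM in controls 1 to 4. Its groups overlapped through cKO 1 and 2, at -0.30 ± 0.25 (adjusted p = 0.506). Phox2a lies across Inppl1 on the opposite strand, which averaged 14.3 FPKM, and the use of strand in the counting is not stated in the labels.

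Of the neuronal RNA-binding proteins, which stabilise and splice neuronal messages, Elavl4 (HuD; chr4:110060919-110209106, minus strand) had the largest positive log2 fold change of the members. It had 6.86, 8.37, 7.11 and 6.62 FPKM in cKO 1 to 4, against 6.89, 6.70, 4.99 and 6.38 FPKM in controls 1 to 4. Its levels in cKO 2 and 3 lay above every control, those in controls 3 and 4 lay below every cKO library, and the others interleaved. Its log2 fold change was 0.19 ± 0.11 (SE, adjusted p of 0.333 by limma), and 0.0032 after correction for GC content and length, where Cartpt was the highest at 0.29. Its paralogue Elavl3 (HuC) lay at 1.57 to 2.43 FPKM in cKO and 1.86 to 2.81 FPKM in controls, at -0.20 (adjusted p = 0.412), so that the paralogues had opposite signs, neither of them past the threshold.

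The 6 microtubule and growth cone genes split into 4 above 0 and 2 below, from -0.27 to 0.17. Tubb3 had 24.8, 35.4, 19.4 and 19.2 FPKM in cKO 1 to 4, against 37.8, 37.2, 18.7 and 21.1 FPKM in controls 1 to 4. Controls 1 and 2 were the highest and control 3 the lowest of all 8, so the control group alone spanned the whole range, and the log2 fold change was -0.18 ± 0.28 (SE, adjusted p of 0.735 by limma). Gap43, a growth cone protein of extending axons, was highest in cKO 2 and lowest in control 3, with 18.5, 29.6, 17.2 and 16.1 FPKM in cKO 1 to 4 and 23.4, 24.0, 14.0 and 15.96 FPKM in controls 1 to 4. The stathmins, which bind tubulin, differed in sign (0.09 for Stmn2, which lay below 0 with GC correction or array weights, and -0.27 for Stmn3). Stmn2 lay at 8.78 to 12.6 FPKM in cKO and 8.64 to 10.7 FPKM in controls, and Stmn3 at 9.32 to 17.6 FPKM in cKO and 13.8 to 17.7 FPKM in controls. For Stmn3 the cKO libraries 1, 3 and 4 were below every control. Map2, a dendritic microtubule protein, lay at 2.60 to 3.11 FPKM in cKO and 2.25 to 2.64 FPKM in controls, and Dcx (doublecortin), a protein of young migrating neurons, at 1.29 to 2.05 FPKM in cKO and 1.05 to 1.77 FPKM in controls, both overlapping.

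The intermediate filaments had log2 fold changes between -0.21 and 0.09. Peripherin had 21.7, 32.4, 21.8 and 16.5 FPKM in cKO 1 to 4, against 28.5, 31.8, 20.7 and 24.9 FPKM in controls 1 to 4, with cKO 2 highest and cKO 4 lowest. The neurofilament light and medium chains Nefl and Nefm and the alpha-internexin gene Ina lay at 3.00 to 4.83, 1.99 to 4.14 and 4.43 to 7.92 FPKM in cKO, against 2.53 to 4.00, 1.73 to 3.93 and 3.95 to 8.70 FPKM in controls. The groups overlapped for each of the 3 genes. Nefl and Nefm overlap on opposite strands, and Ina overlaps Nt5c2 on the opposite strand, so reads between them can be assigned with certainty only if strand was used.

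Among the other pan-neuronal genes, Sncg (gamma-synuclein, found in peripheral neurons; chr14:34092231-34096746, minus strand) had 10.3, 14.8, 8.56 and 7.95 FPKM in cKO 1 to 4, against 15.03, 13.6, 12.97 and 12.0 FPKM in controls 1 to 4. The cKO libraries other than cKO 2 lay below every control, and the log2 fold change was -0.37 ± 0.17 (SE, adjusted p of 0.244 by limma). Uchl1 lay at 16.9 to 28.6 FPKM in cKO and 20.7 to 28.4 FPKM in controls, and Rtn1, a reticulon of the endoplasmic reticulum, at 4.36 to 7.92 FPKM in cKO and 4.64 to 7.51 FPKM in controls. The genes of vesicle release were low. Snap25, a SNARE of the plasma membrane, lay at 1.44 to 1.66 FPKM in cKO and 1.02 to 1.95 FPKM in controls, and Syt1, the calcium sensor of release, at 1.72 to 2.92 FPKM in cKO and 1.42 to 2.71 FPKM in controls.

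The cholinergic markers were both present at low level. Slc18a3, the vesicular acetylcholine transporter, had 2.81, 3.74, 1.43 and 1.68 FPKM in cKO 1 to 4, against 3.38, 4.38, 2.45 and 2.21 FPKM in controls 1 to 4, at -0.29 ± 0.24 (SE, adjusted p of 0.520 by limma). The lowest 2 libraries were cKO 3 and 4 and the highest was control 2. Chat, the enzyme that makes acetylcholine, lay at 0.389 to 0.714 FPKM in cKO and 0.481 to 0.675 FPKM in controls, under the filter. Slc18a3 lies inside Chat on the same strand, and the labels do not state how reads in the shared stretch were assigned. Chrna3, the alpha-3 subunit of the nicotinic receptor of autonomic ganglia, lay at 2.76 to 6.07 FPKM in cKO and 3.03 to 3.87 FPKM in controls. Nos1, the neuronal nitric oxide synthase of inhibitory motor neurons, lay at 1.27 to 2.00 FPKM in cKO and 1.21 to 1.92 FPKM in controls, with a log2 fold change of 0.01.

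The catecholamine enzymes and Npy were near the limit of detection. Th, the first enzyme of catecholamine synthesis, had 3, 2, 2 and 3 reads in cKO 1 to 4 and 3, 5, 2 and 4 reads in controls 1 to 4. Dbh, which makes noradrenaline, had 15, 15, 5 and 1 reads in cKO 1 to 4 and 5, 10, 8 and 12 reads in controls 1 to 4. Npy, a peptide of sympathetic and some enteric neurons, had 1 read in cKO 3, 1 in control 1 and 0 in the other 6 libraries. At these depths a difference between the groups was not detectable.

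The neuropeptide Gal (galanin; chr19:3459915-3464544, minus strand) had the largest log2 fold change in size of the 25 members. It had 2.49, 3.44, 2.63 and 2.64 FPKM in cKO 1 to 4, from 151 reads in all, against 5.07, 5.32, 3.04 and 5.90 FPKM in controls 1 to 4, from 257 reads. Control 3 lay below cKO 2, and the other 3 controls lay above every cKO library. Gal averaged 2.80 ± 0.433 FPKM in cKO and 4.83 ± 1.24 FPKM in controls (SD, n = 4 each), a log2 fold change of -0.59 ± 0.17 (SE). The 95% interval in log2 ran from -0.98 to -0.21, which is 0.508 to 0.862 times the control level on the FPKM + 1 scale. The unadjusted p was 0.00649 and the limma adjusted p 0.0966, so Gal did not pass the threshold.

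Vip (vasoactive intestinal peptide; chr10:5589218-5597617, plus strand), a transmitter of inhibitory motor and secretomotor neurons, had 5.12, 4.999, 4.65 and 4.42 FPKM in cKO 1 to 4, against 3.85, 4.06, 4.07 and 4.55 FPKM in controls 1 to 4. The cKO libraries 1, 2 and 3 lay above every control and cKO 4 below control 4. The log2 fold change was 0.18 ± 0.08 (SE), with an unadjusted p of 0.0477 and a limma adjusted p of 0.218. Cartpt, which encodes the CART peptide of myenteric neurons, had 5.45, 5.99, 4.60 and 4.03 FPKM in cKO 1 to 4, against 4.20, 3.43, 4.35 and 5.50 FPKM in controls 1 to 4, and its groups overlapped (0.17, adjusted p = 0.524).

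Within a library the 2 peptides Gal and Vip come from the same tissue piece, and their ratio does not depend on the scaling between libraries. The ratio was not corrected for GC content, which was 55.5% for Gal and 38.7% for Vip. With GC and length correction their log2 fold changes were -0.41 and -0.0037, against -0.59 and 0.18 without it. Gal over Vip was 0.487, 0.689, 0.566 and 0.598 in cKO 1 to 4, against 1.31, 1.31, 0.747 and 1.30 in controls 1 to 4, so every cKO library lay below every control. This ratio was chosen after the values were seen and joins the members of smallest p in each direction, so it carries no test. Of the 300 pairs of tested members, 37 (12.3%) had ratios without overlap between the groups, where the share was 13.2% over all pairs of the 13997 tested genes with a read in every library. The ratio of Gal was lower in every cKO library against 12 of its 24 partners among the members, and against 32.5% of all those genes. That of Sncg was so against 6 members (9.61% of all those genes) and that of Tlx2 against 5 (2.09%). In the other direction, the ratios of Nefl and Syt1 were higher in every cKO library against 5 members each. Those of Elavl4, Stmn2 and Gap43 were so against 4 each, and shares over all genes were not computed for these. The members named were picked by these counts.

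**Figure D3:**
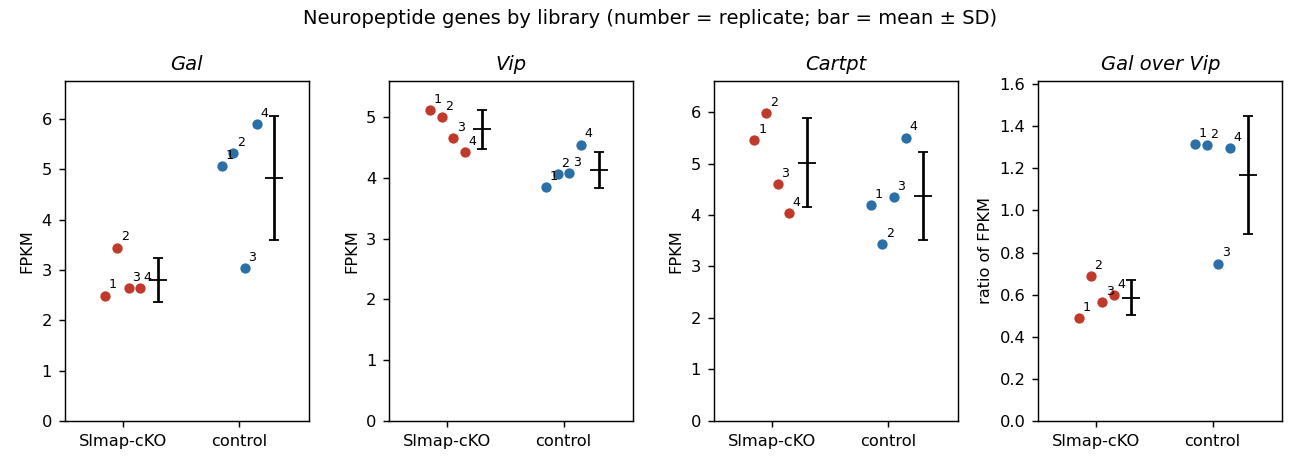
FPKM of Gal, Vip and Cartpt and the ratio of Gal to Vip (vertical axes, from 0) in each library, labelled cKO on the left and control on the right of each panel; points carry the replicate number, and bars give the mean ± SD of 4 libraries. Gal is at 2.49 to 3.44 FPKM in cKO and 3.04 to 5.90 FPKM in controls, and the ratio does not overlap between the groups.

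Vip and other peptide genes are known to respond to cyclic AMP through an element with the core TGACGTC. The start regions of the 3 peptide genes are therefore shown, and they differ in exact matches to it. Each is the 300 bases around the RefSeq start, 250 before and 50 after, on GRCm38.p6 and in the gene's direction. Capitals mark TGACGTC on either strand and TATAAA on the gene's strand.
Gal (chr19:3414495-3414794, minus strand): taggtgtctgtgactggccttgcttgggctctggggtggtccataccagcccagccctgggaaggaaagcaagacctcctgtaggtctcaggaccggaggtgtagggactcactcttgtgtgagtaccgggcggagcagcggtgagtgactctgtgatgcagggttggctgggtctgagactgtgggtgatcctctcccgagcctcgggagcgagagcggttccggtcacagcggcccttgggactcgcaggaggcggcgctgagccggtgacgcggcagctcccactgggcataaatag
Vip (chr10:5638968-5639267, plus strand): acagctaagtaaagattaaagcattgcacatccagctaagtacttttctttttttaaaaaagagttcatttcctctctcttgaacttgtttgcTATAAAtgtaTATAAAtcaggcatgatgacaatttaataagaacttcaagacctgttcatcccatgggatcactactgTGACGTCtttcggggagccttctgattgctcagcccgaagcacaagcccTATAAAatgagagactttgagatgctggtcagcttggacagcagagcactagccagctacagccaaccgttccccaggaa
Cartpt (chr13:99900634-99900933, minus strand): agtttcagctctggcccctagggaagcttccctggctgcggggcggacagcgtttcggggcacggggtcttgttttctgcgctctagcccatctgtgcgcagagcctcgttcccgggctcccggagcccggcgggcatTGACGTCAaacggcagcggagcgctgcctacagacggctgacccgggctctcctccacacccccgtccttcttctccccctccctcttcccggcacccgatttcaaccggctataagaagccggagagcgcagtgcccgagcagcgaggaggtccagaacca
Vip held TGACGTC 79 bases before its start and TATAAA 30 bases before it. Cartpt held TGACGTC 111 bases before its start within TGACGTCA. Gal held no exact match to either in this window. Its last 50 bases, which follow the RefSeq start, do hold the similar strings tgacgcg and cataaa. Near matches were not counted for any gene, and whether Gal responds to cyclic AMP was not tested. Over 32851 promoters of this length, 3.21% held TGACGTC on either strand and 8.32% held TATAAA on the gene's strand. Of the 23 members with an entry, Cartpt, Th and Vip held TGACGTC, and Dcx, Elavl3, Prph and Vip held TATAAA. A match describes the letters and shows no binding.

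The sign of a member followed the base composition of its transcript. The 13 tested members with a GC content of at least 54.1%, the median of the 25, all had log2 fold changes below 0, with a median of -0.21, and the 12 with a lower GC content all had log2 fold changes above 0, with a median of 0.11. Over all tested genes, 83.9% of 3688 genes at or above that GC content were below 0, and 62% of 10304 genes under it were above 0. Across genes, Spearman's rho between log2 fold change and GC content was -0.86 for the 25 members and -0.56 for 13992 tested genes with a GC value, and genes of the same libraries are not independent replicates.

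The first 120 coding bases are given for 4 members near the ends of the range of transcript GC content. They were taken from the longest protein-coding GENCODE M21 transcripts, with each G and C in capitals.
Tlx2: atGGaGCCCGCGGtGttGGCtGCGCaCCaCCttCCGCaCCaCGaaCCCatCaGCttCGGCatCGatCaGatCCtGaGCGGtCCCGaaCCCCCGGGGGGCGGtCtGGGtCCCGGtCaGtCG
Phox2a: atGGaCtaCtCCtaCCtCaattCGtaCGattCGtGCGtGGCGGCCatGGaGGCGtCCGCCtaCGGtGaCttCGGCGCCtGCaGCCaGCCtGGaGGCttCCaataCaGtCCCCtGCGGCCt
Vip: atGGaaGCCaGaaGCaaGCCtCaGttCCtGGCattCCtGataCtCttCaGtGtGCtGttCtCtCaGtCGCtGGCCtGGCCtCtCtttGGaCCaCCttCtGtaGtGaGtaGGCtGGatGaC
Elavl4: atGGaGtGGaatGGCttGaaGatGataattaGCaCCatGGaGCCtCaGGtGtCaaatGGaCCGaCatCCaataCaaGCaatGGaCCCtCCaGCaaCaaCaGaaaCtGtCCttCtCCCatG
In the bases shown, G and C made up 68.3% of Tlx2 and 62.5% of Phox2a, both below 0, and 53.3% of Vip and 47.5% of Elavl4, both above 0. Over the whole coding sequences the GC contents were 69.8%, 69.17%, 48.15% and 51.08% in the same order of genes. Over their longest transcripts of any kind, which set the split at 54.1%, they were 67.3%, 63.8%, 38.7% and 38.9%. The Vip bases shown come from another transcript, its longest protein-coding one, at 42.16%. The contrast was thus smaller in the coding bases than over the longest transcripts.

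The members on either side of 54.1% also differed in how far the libraries spread. The GC-rich members deviated by -0.13, 0.35, -0.32 and -0.40 in cKO 1 to 4, against 0.36, 0.37, -0.19 and -0.04 in controls 1 to 4. The GC-poor members deviated by 0.11, 0.27, -0.09 and -0.05 in cKO 1 to 4, against 0.04, -0.00, -0.17 and -0.11 in controls 1 to 4. Thus cKO 2 was high in both sets, while controls 1 and 2 were high in the GC-rich set only and lay near 0 in the GC-poor set.

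After a correction for transcript GC content and length within each library, 12 members were below 0 and 13 above, with a median of 0.00, and Spearman's rho with GC content was -0.10. Tlx2 was then at -0.17, Phox2a at -0.03 and Vip at -0.0037, and Gal kept the lowest value, -0.41, with a limma adjusted p of 0.415. The corrected deviations of the members were 0.01, 0.34, -0.18 and -0.19 in cKO 1 to 4, against 0.15, 0.13, -0.18 and -0.08 in controls 1 to 4, so the order of libraries was as before. Whether the relation to GC content arose in the libraries or in the tissue was not tested.

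**Figure D4:**
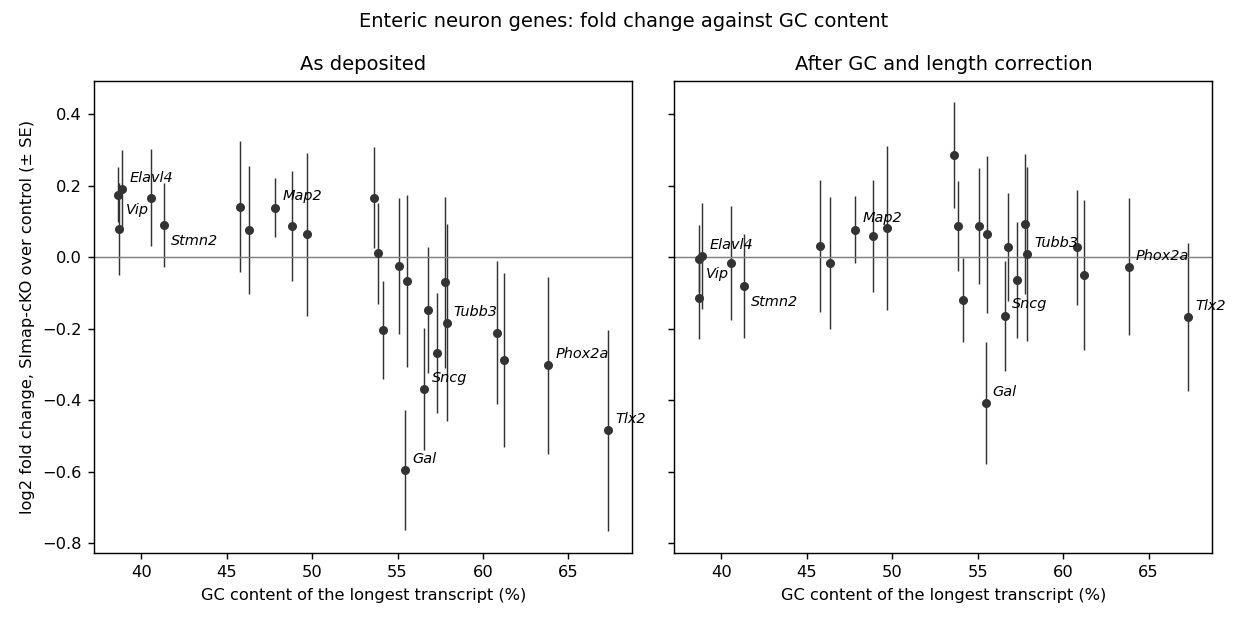
Log2 fold change of each of the 25 tested enteric neuron genes, cKO over control, with its SE (vertical axes), against the GC content of its longest transcript in percent (horizontal axes), as deposited on the left and, on the right, with each library corrected for GC content and length. On the left the 13 genes at or above 54.1% lie below 0 and the 12 others above 0; on the right both sets scatter about 0 and Gal is the lowest at -0.41.

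Of 68 other neuron genes listed, 46 were tested and 0 were called by limma in either direction. With p unadjusted and under 0.05, 1 was higher and 4 were lower in cKO (12.6% and 9.87% of all tested genes); 33 of the 46 were below 0, and the median was -0.09. The 4 genes of smallest p were Rtn3, Stx1a, Nnat and Sv2a. Rtn3, a reticulon found in neurons and many other cells, had 54.8, 49.9, 50.3 and 54.6 FPKM in cKO 1 to 4, against 43.4, 41.8, 37.8 and 41.5 FPKM in controls 1 to 4, higher without overlap (0.34, adjusted p = 0.0782). Stx1a, a SNARE of the presynaptic membrane, had 3.80, 5.38, 4.05 and 3.41 FPKM in cKO 1 to 4, against 5.72, 6.05, 6.45 and 5.82 FPKM in controls 1 to 4, lower without overlap (-0.46, adjusted p = 0.0823). Nnat (neuronatin) averaged 48.6 ± 9.68 FPKM in cKO and 67.3 ± 4.01 FPKM in controls (-0.48, adjusted p = 0.0920), lower without overlap, and the vesicle protein gene Sv2a was at -0.32 (adjusted p = 0.192). Calb2 (calretinin) was listed at 0 in all 8 libraries.

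Of 23 regulators and receptors of enteric nervous system development, 21 were tested, 0 were called by limma, 16 were below 0 and the median was -0.06. With p unadjusted and under 0.05, 2 were higher and 3 were lower, near the shares of 12.6% and 9.87% over all tested genes. Ednrb, the endothelin receptor of migrating crest cells, which other cells of the gut wall also express, had 70.7, 69.8, 67.2 and 71.8 FPKM in cKO 1 to 4, against 59.0, 55.9, 52.0 and 52.9 FPKM in controls 1 to 4, higher without overlap (0.34, adjusted p = 0.0758). Hand2, a transcription factor of enteric neurons that gut mesenchyme also expresses, had 12.0, 19.4, 8.95 and 9.58 FPKM in cKO 1 to 4, against 21.5, 20.3, 19.6 and 16.6 FPKM in controls 1 to 4. Only cKO 2 reached the control range, and the log2 fold change was -0.66 ± 0.21 (SE, adjusted p = 0.124). Nrtn (neurturin, a ligand for the Ret receptor complex) and the transcription factor gene Etv1 were at -0.26 and 0.19 (adjusted p = 0.158 and 0.208). Sox10, which marks crest progenitors and glia, averaged 4.54 ± 1.30 FPKM in cKO and 6.04 ± 0.836 FPKM in controls (-0.37, adjusted p = 0.215). In both lists the genes at or above 54.1% GC were mostly below 0, 9 of 10 among the other neuron genes and 9 of 9 among the regulators, near the 83.9% over all tested genes. Under that GC content 12 of 36 and 5 of 12 were above 0, against 62% of all tested genes, so most of the GC-poor genes of both lists were below 0 as well.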

How the data were processed

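Libraries were made from TRIzol-extracted total RNA with the NEBNext Ultra kit, per the labels' protocols. Build GRCm39 and the tools HISAT2, featureCounts, fastp, CASAVA and DESeq2 1.20.0 appear, without roles, in the submitters' processing notes. The authors deposited 1 table of FPKM values for 55681 genes in 8 libraries, and 3 blank lines in it are not analysed here. FPKM times gene length was a whole multiple of 1 read, within 0.01, for 100% of values above 0, and gave the reads; the deposited totals were 0.969 to 1.09 times their sums. A gene of 1 kilobase at 1 FPKM rests on under 20 reads.

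The 14220 genes that averaged 1 FPKM or more were tested on log2(FPKM + 1) in limma 3.58.1 (R 4.3.3) with an intensity trend, as cKO minus control, 2-sided, with Benjamini-Hochberg adjustment over all of them and a threshold of 0.05. This scale understates changes of low genes. P-values set the difference between the groups against the spread between libraries within them, each from 1 embryo. That spread can also hold differences between libraries that the labels do not name. Scripts were tested on simulated data. GC content came from the longest GENCODE M21 transcript by gene identifier (98.4% of tested genes, all 29 members) and was corrected with splines per library. Limma-voom on the reads used trimmed-mean (TMM) scaling factors.

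The members and lists were chosen with earlier results of these data known. All 29 members are named; of the 2 related neuron lists, the 4 genes of smallest p where none was called, and of other marker lists the gene of highest mean. The terms for the other neuron genes and the fit without cKO 2 and controls 3 and 4 were added after the data were seen. Promoter windows are from RefSeq on GRCm38.p6, not the build of the table.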

Additional observations from a re-analysis of the deposited data

Results flagged for a closer look

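Npy was set apart in both groups because 1 library lay far from the other 3: it was at 0.105 FPKM in cKO 3 and 0 in the other cKO libraries, and at 0.105 FPKM in control 1 and 0 in the other controls. Each value rests on 1 read. These were 2 of 58 groups of 4 values examined, where chance gives about 1 in 20.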

How the results depend on the processing

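The count of members called was 0 in the main analysis, 3 lower with array quality weights (Gal, Sncg and Tlx2), 11 without cKO 2 and controls 3 and 4, and 0 to 1 with each library left out. Their median was -0.25 without controls 3 and 4 and -0.43 without these and cKO 2. Genes called over the whole table numbered 2, and 0 with a pseudocount of 0.1 or 5, no filter, limma-voom or the replicate block, 1 for protein-coding genes only, 45 at a mean of at least 5 FPKM, 34 with quantile normalization, 28 scaled by summed reads, 2209 with array weights, 1099 with a term for numbers 1 and 2 against 3 and 4, 1255 with a term for the other neuron genes, 4240 without the 3 libraries, and 0 to 1382 with each library left out. In the same settings (weights, number term, neuron term, without the 3 libraries) 4, 3, 3 and 15 other neuron genes and 4, 2, 1 and 9 regulators were called, and 0 to 3 and 0 to 5 with each library left out. The cause was not tested. Gal ranged from -0.79 to -0.33 over the settings (adjusted p 0.0063 to 0.415) and was below 0 in all of them.

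Signs turned as follows, in log2 fold change. GC and length correction: Tubb3 0.0095, Dcx -0.016, Stmn2 -0.081, Prph 0.027, Nefm 0.094, Ina 0.064, Uchl1 0.029, Rtn1 0.088, Snap25 -0.11, Chrna3 -0.016, Vip -0.0037 and Slmap -0.030. Array weights gave Stmn2 -0.042, Gap43 -0.21, Nefl -0.090, Syt1 -0.057, Nos1 -0.022 and Chrna3 -0.12. Limma-voom gave Nos1 -0.0085, quantile normalization gave Nefm 0.0071 and Rtn1 0.0067, and summed reads gave Gap43 -0.0026 and Nos1 -0.032. The neuron term gave Tubb3 0.073, Nefm 0.14, Ina 0.15, Uchl1 0.009 and Rtn1 0.15. Without the 3 libraries came Dcx -0.0062, Stmn2 -0.12, Gap43 -0.44, Nefl -0.22, Syt1 -0.22, Nos1 -0.066 and Chrna3 -0.16, and without controls 3 and 4 came Stmn2 -0.029, Gap43 -0.25, Nefl -0.099, Syt1 -0.13 and Nos1 -0.13. With each library left out, Chrna3 ran from -0.11 to 0.20, Gap43 from -0.12 to 0.18, Ina from -0.22 to 0.099, Nefl from -0.033 to 0.16, Nefm from -0.24 to 0.051, Nos1 from -0.061 to 0.074, Rtn1 from -0.16 to 0.087, Snap25 from -0.0035 to 0.18 and Stmn2 from -0.0013 to 0.16.

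Nothing in the labels says that the replicate numbers pair embryos. Deviations of same-numbered libraries correlated at 0.07, 0.33, 0.15 and 0.21, and not every library was nearest to its own number. Libraries 1 and 2 of one group correlated above 0 with libraries 1 and 2 of the other (0.07 to 0.33), as did 3 and 4 with 3 and 4 (0.15 to 0.39), and the other combinations were below 0. With the replicate block 0 members were called, with a median of -0.03, and at an unadjusted p under 0.05 by limma 5 were lower (Gal, Tlx2, Slc18a3, Phox2a and Sncg; 11.8% of all tested genes) and 0 higher (12.6%), against 1 and 1 without it. Depth limits Gal most, at 31 to 82 reads per library.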

Other observations

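Markers of other cell types that could carry neural transcripts were low or overlapped between the groups. Of 8 sympathoadrenal markers 4 were tested, with a median of -0.23, a summed level of 18.6 to 23.8 FPKM in cKO and 22.1 to 29.4 FPKM in controls, and Pnmt, the adrenaline enzyme, at 0 in all libraries. The highest of them was Hand1, at a mean of 11.5 FPKM. Of 8 sensory ganglion markers 1 was tested, Isl1, and the summed level was 1.61 to 2.36 FPKM in cKO and 0.899 to 2.49 FPKM in controls. Enteroendocrine markers, led by Chgb at 27.9 FPKM, summed to 49.5 to 86.3 FPKM in cKO and 66.1 to 81.0 FPKM in controls. Enteric glia markers were led by Erbb3 at 23.8 FPKM, and 5 of the 8 tested were below 0, with a median of -0.06. These lists are not separate from the neural ones. Erbb3, Foxd3, Sox10 and Insm1 are also among the regulators and receptors, and Chgb and Slc6a2 are also among the other neuron genes. Chga is in the enteroendocrine and sympathoadrenal lists, and Isl1 in the enteroendocrine and sensory ganglion lists. L1cam is in both the other neuron genes and the regulators. Edn3 and Etv1 are in both the regulators and the markers of interstitial cells of Cajal.

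In the other lists 0 markers were called by limma. Mesothelium markers had a median of -0.64, with 7 of 8 lower at an unadjusted p under 0.05 (9.87% of all tested genes), and macrophage markers had a median of -0.24, with 5 of 7 lower. By the same measure 4 of 10 smooth muscle markers were lower, with 9 of 10 below 0, and 2 of 10 epithelium markers were higher (12.6% of all tested genes), with 9 of 10 above 0. The medians were -0.24 for smooth muscle, -0.09 for interstitial cells of Cajal, -0.12 for fibroblasts, 0.13 for epithelium, 0.20 for endothelium, 0.24 for erythroid cells and -0.56 for pancreas.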
